A study of Mus musculus with 311 samples.

Results

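The livers of 311 F2 mice were ranked by their Cidea transcript, and the animals at both ends of the ranking, chosen by this measured level, were compared across all named genes. The arrays were first split at a log10 ratio of -0.5 on the probe of Eif2s3y, a Y-linked translation factor subunit, which gave 155 Eif2s3y-high and 156 Eif2s3y-low animals. Within each set the highest 25% by the Cidea probe are called Cidea-top here and the lowest 25% Cidea-bottom. They number 38 and 38 among the Eif2s3y-high animals and 39 and 39 among the Eif2s3y-low animals, so 154 of the 311 animals entered the comparison and 77 of them are Cidea-top. All animals came from an intercross of C57BL/6J and C3H/HeJ, both on an ApoE null background, and all ate a Western-type high-fat diet from 8 to 24 weeks of age. They therefore share the ApoE deficiency and the diet, and no animal without them was compared. Both sexes were in the cross, but no label gives the sex, a histology or a lipid measure of a single animal, so the sets are named by the probe that made them. Each array set 1 animal's liver RNA (Cy3) against a reference pooled from the samples' RNA (Cy5), and values are log10 ratios to that pool, where 0 is the pool's level and -1 is 0.1 times it.

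CIDEA sits on the surface of lipid droplets, where it promotes their fusion into larger ones; it is abundant in brown fat, scarce in lean liver and raised in steatotic liver. PLIN4 is a coat protein of lipid droplets, and PPARG is the nuclear receptor that switches on storage genes in adipocytes and, when it is raised, in hepatocytes. Mouse liver also differs widely between the sexes, with large families of cytochromes P450, sulfotransferases and transporters set by the growth hormone pattern and by androgens.

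The 2 probes that formed the groups are described without a test. Eif2s3y had a median of 0.358 in the Eif2s3y-high and -1.46 in the Eif2s3y-low animals, and no array lay between -0.875 and -0.219. Among Eif2s3y-high animals Cidea ran from 0.469 to 1.03 in the Cidea-top group, with a median of 0.659, and from -1.3 to -0.798 in the Cidea-bottom group, with a median of -0.974. The next animals outside these groups stood at 0.460 and -0.791. Among Eif2s3y-low animals Cidea ran from -1.03 to -0.397 in the Cidea-top group (median -0.897) and from -1.55 to -1.26 in the Cidea-bottom group (median -1.33), and the next animals outside stood at -1.029 and -1.255. The mean gap was 51.8-fold in the first set and 2.97-fold in the second. The Cidea-top animals of the Eif2s3y-low set thus lay in the range of the Cidea-bottom and second 25% of the Eif2s3y-high set, below the pool without exception.

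**Figure D1:**
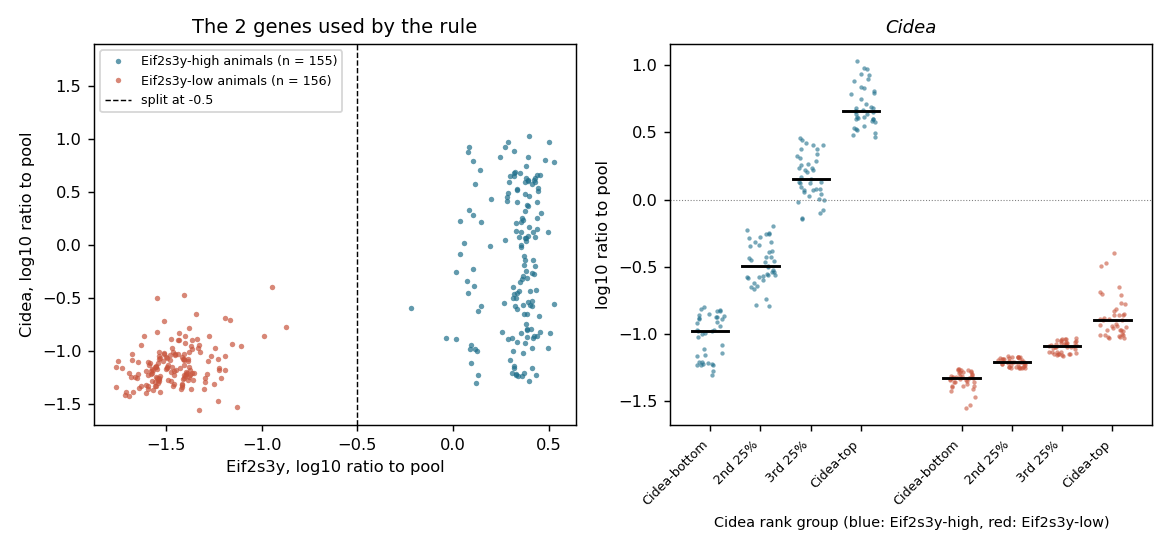
Left, the log10 ratios to the pool of Eif2s3y and Cidea on each of 311 arrays, with the split at -0.5. Right, Cidea by rank group within each set, with 1 point per animal and a bar at the median; Cidea spans 51.8-fold between the outer groups of the Eif2s3y-high animals and 2.97-fold between those of the Eif2s3y-low animals.

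The other markers of a fatty liver separated the groups clearly in 1 set and weakly in the other. In Eif2s3y-high animals Pparg ran from -0.497 through a median of -0.145 to 0.0211 in the Cidea-bottom group and from -0.00596 through 0.131 to 0.312 in the Cidea-top group. Of the 38 Cidea-top animals 36 lay above every Cidea-bottom animal. The mean was 2.04-fold higher (95% interval 1.83 to 2.26, adjusted p = 6.63e-24). In Eif2s3y-low animals Pparg ran from -0.366 through -0.0563 to 0.129 and from -0.382 through 0.0186 to 0.232, and 3 of 39 Cidea-top animals lay above every Cidea-bottom animal. The difference of 1.11-fold (1.0 to 1.23) did not pass the test (adjusted p = 0.155), and the change differed between the sets (adjusted p = 2.95e-10). Plin4 was higher in the Cidea-top groups of both sets. Since Cidea formed the groups, Plin4 and Pparg alone bear on the name fatty-liver-like, and both were higher in the Cidea-top group of Eif2s3y-high animals; among Eif2s3y-low animals, where Cidea stayed below the pool and Pparg was not called, the groups are named by their Cidea rank only.

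The arrays of the groups differed in some respects that are not gene specific. In the Eif2s3y-low set the Cidea-top arrays had a mean of 292.5 missing values against 69.9 (two-sided permutation test, adjusted p = 0.00032 over 8 comparisons), and in the Eif2s3y-high set 145.1 against 204.4 (adjusted p = 0.573). The mean of the array medians was lower in Cidea-top arrays, at 0.00302 against 0.00563 in the Eif2s3y-high set (adjusted p = 0.00276) and 0.00294 against 0.00564 in the Eif2s3y-low set (adjusted p = 0.0102). The SD over probes and the number given to each animal in the cross (the F2 number) were not called in either set (adjusted p from 0.238 to 0.972). Eif2s3y itself, described only, had a mean 0.129 higher in the Cidea-top than in the Cidea-bottom group of the Eif2s3y-low set, whereas the Y-linked demethylase gene Kdm5d was not called there (1.15-fold, 0.996 to 1.33, adjusted p = 0.181). Usp9y, another Y-linked gene, was 1.08-fold lower (adjusted p = 0.0498). In that set 21 of 29 genes with a mean ratio at or below -0.5 were higher in the Cidea-top group, with a median log10 difference of 0.0851, against -0.00122 for genes near the pool's level. Cidea, which is not among the 29, also lay below the pool in both groups of that set. Whether its ranking there shares this shift was not tested. The part of these measures in the results was not tested, except where a value without the arrays or with a covariate is given.

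Across 11385 genes, Cidea-top and Cidea-bottom livers differed broadly and mostly by small amounts. In Eif2s3y-high animals 1415 genes (12.4%) were higher and 1576 (13.8%) lower in the Cidea-top group at an adjusted p under 0.05 (limma, Benjamini-Hochberg over all genes). In Eif2s3y-low animals 867 genes (7.62%) were higher and 873 (7.67%) lower. The median size of a difference over all genes was 1.05-fold and 1.04-fold. A fold of at least 1.5 was reached by 86 higher (0.755%) and 41 lower genes (0.36%) in the first set and by 14 (0.123%) and 23 (0.202%) in the second. Called in both sets in the same direction were 283 genes higher (2.49%) and 261 lower (2.29%), and 32 genes (0.281%) were called in opposite directions. With each array centred on its median these became 336 higher and 201 lower, so the balance of directions moved with the centring.

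The calls of the Eif2s3y-low set depended on which animals were taken. Among animals with F2 numbers up to the median of 186 (20 Cidea-top, 16 Cidea-bottom) 2 genes were higher and 2 lower, and above it (19 and 23) 479 and 477. In the Eif2s3y-high set the counts were 577 and 544 (13 and 22 animals) and 768 and 743 (25 and 16 animals). Genes called in both sets fell to 1 higher and 0 lower in the first part of the cross and to 106 and 118 in the second. The 0 (limma) stands beside 261 genes with every array and 205 at an unadjusted p under 0.05 in both sets. With the F2 number group (up to or above 186) as a covariate, 853 genes were higher and 839 lower in the Eif2s3y-low set. Genes called in both sets were then 277 higher and 257 lower, and 888 differed between the sets, against 1126 without the covariate. Why the first part of the cross gave fewer calls was not tested. Without the 16 arrays with more than 500 missing values, 7 of them Cidea-top in the Eif2s3y-low set, 716 genes were higher and 753 lower in that set and 227 and 213 in both. With the Eif2s3y value as a covariate these were 439 and 451, and 182 and 180.

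**Figure D2:**
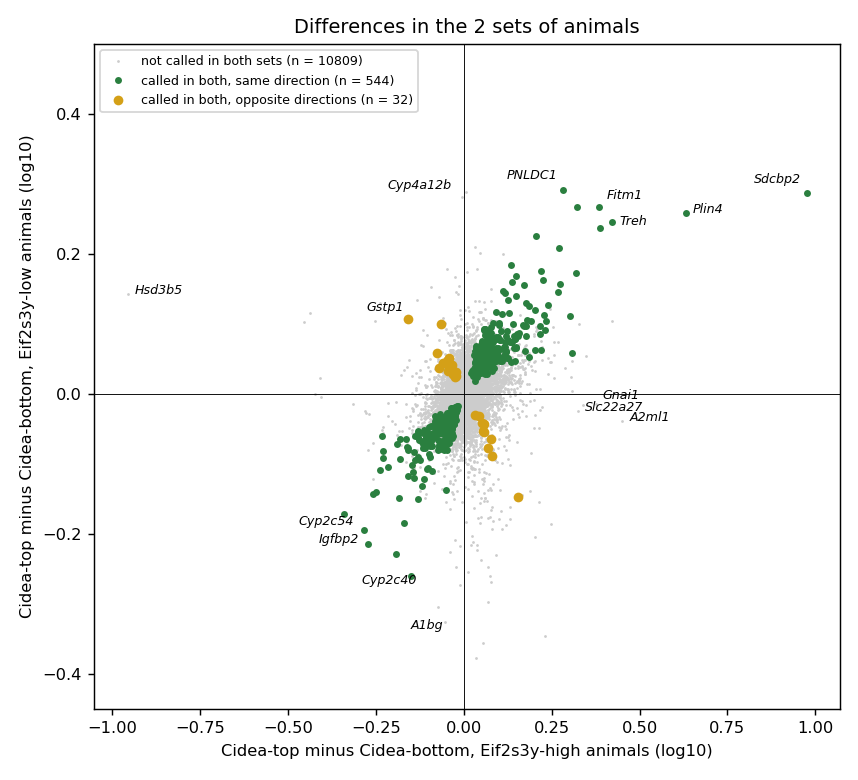
The log10 difference between the means of Cidea-top and Cidea-bottom animals for each gene tested, in Eif2s3y-high (horizontal) and Eif2s3y-low animals (vertical). Green points are the 544 genes called in both sets in the same direction, yellow points the 32 called in opposite directions; Sdcbp2 and Plin4 lie farthest to the right and Hsd3b5 farthest to the left.

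Of the 9 genes at least 1.5-fold higher in the Cidea-top groups of both sets, Plin4 and Fitm1 are on the lipid droplet and storage list and the other 7 are not. Plin4 ran from -0.883 through a median of -0.372 to 0.173 in Cidea-bottom and from -0.130 through 0.272 to 0.496 in Cidea-top animals of the Eif2s3y-high set, a 4.28-fold difference of means (3.21 to 5.71, adjusted p = 1.72e-15). In the Eif2s3y-low set it ran from -0.968 through -0.348 to 0.270 and from -0.806 through 0.0146 to 0.396, which is 1.81-fold (1.36 to 2.41, adjusted p = 0.00252). Of the Cidea-top animals 25 of 38 lay above every Cidea-bottom animal in the first set and 4 of 39 in the second, so the groups overlap widely there. Sdcbp2, which codes for the phosphoinositide-binding protein syntenin-2, had the largest rise in the Eif2s3y-high set apart from Cidea. It ran from -0.786 through -0.547 to -0.108 in Cidea-bottom and from 0.0442 through 0.472 to 0.897 in Cidea-top animals, with no overlap in 38 against 38. That is 9.44-fold (7.49 to 11.9, adjusted p = 1.13e-38). In Eif2s3y-low animals Sdcbp2 was 1.93-fold higher (1.54 to 2.43, adjusted p = 2.89e-05), and 7 of 39 Cidea-top animals exceeded every Cidea-bottom animal.

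Fitm1, whose endoplasmic reticulum protein moves triglyceride into lipid droplets, was 2.43-fold higher in Eif2s3y-high (1.96 to 3.02, adjusted p = 4.01e-11) and 1.85-fold in Eif2s3y-low animals (1.49 to 2.28, adjusted p = 2.84e-05). Its medians moved from -0.0881 to 0.312 and from -0.418 to -0.138, and 35 of 37 and 15 of 38 Cidea-top animals lay above every Cidea-bottom animal. Treh, the disaccharidase trehalase, was 2.64-fold (2.10 to 3.32) and 1.76-fold (1.41 to 2.21) higher, with 33 of 38 and 2 of 39 animals above the other group. Pex11a, a peroxisome division gene of the PPAR alpha targets, rose 1.67-fold (1.48 to 1.89) with 30 of 38 animals above the other group, and 1.45-fold (1.29 to 1.64) with 16 of 39 above. The probe named PNLDC1 in the platform table, an exoribonuclease gene, was higher in both, at 1.91-fold (1.56 to 2.34) and 1.96-fold (1.61 to 2.39), with 10 of 38 and 16 of 39 animals above.

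The other genes of at least 1.5-fold in both sets were Ly6d, a surface antigen gene (2.44-fold and 1.73-fold), Sprr1a, a cornified envelope gene (2.10-fold and 1.85-fold), Ubd, which codes for a ubiquitin-like modifier (1.86-fold and 1.61-fold), and Cbfa2t3, a transcriptional corepressor (1.61-fold and 1.68-fold). With Plin4, Sdcbp2, Fitm1, Treh and PNLDC1 they make 9 genes (0.0791% of those tested). Below that fold in the Eif2s3y-low set, the leading shared genes were Bmp8b, a signalling ligand of the BMP family (2.09-fold and 1.49-fold), Clstn3 (1.87-fold and 1.43-fold), Mtmr11, a myotubularin-related gene (1.66-fold and just under 1.5-fold), Tubb2a, a beta-tubulin (2.01-fold and 1.29-fold), and Fasn, the fatty acid synthase (1.86-fold and 1.4-fold, adjusted p = 0.0499 in the second). Plin4, Sdcbp2 and Tubb2a rose more in the Eif2s3y-high set (adjusted p for the difference 0.00355, 1.17e-13 and 0.00202). Per log10 unit of Cidea their differences between the sets changed sign (-0.149, -0.0366 and -0.056) and were not called. For the other genes of these 15 the difference between the sets was not called (adjusted p from 0.0901 to 0.938).

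**Figure D3:**
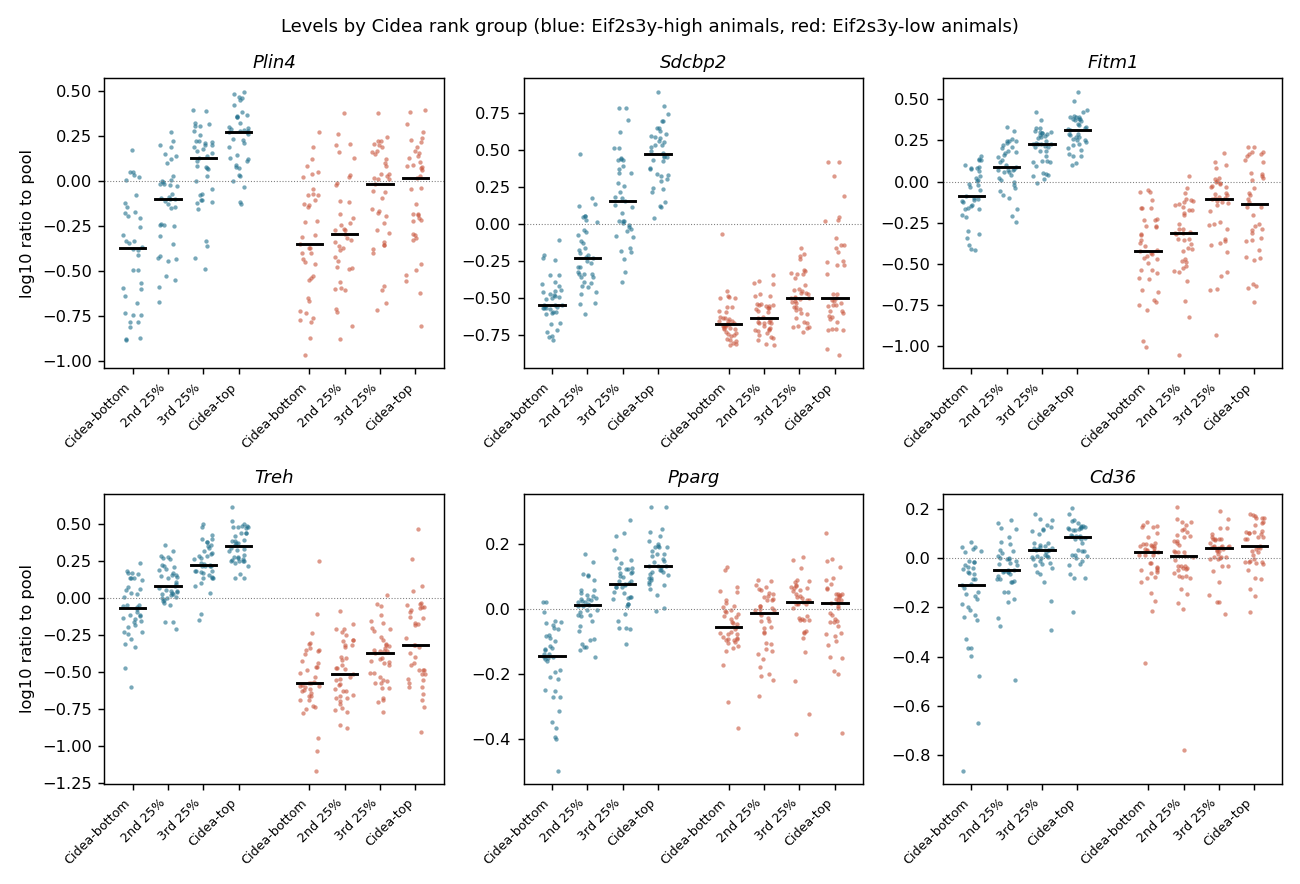
Log10 ratio to the pool of 6 genes by Cidea rank group in Eif2s3y-high (blue) and Eif2s3y-low animals (red), with 1 point per animal and a bar at the median. Plin4, Sdcbp2, Fitm1 and Treh are higher in the Cidea-top groups of both sets; Pparg and Cd36 are higher in the Eif2s3y-high set and were not called in the Eif2s3y-low set.

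Of the 15 leading genes lower in both sets 6 were cytochromes P450 of the Cyp2c family, which oxidise drugs, fatty acids and steroids. Folds and intervals of lower genes are Cidea-bottom over Cidea-top. Among genes called lower in both sets, Cyp2c54 had the largest fall in Eif2s3y-high animals, from a median of 0.121 (-0.476 to 0.339) to -0.174 (-0.650 to 0.116), 2.19-fold lower (1.83 to 2.60, adjusted p = 1.06e-12). In Eif2s3y-low animals it moved from 0.0565 (-0.367 to 0.365) to -0.114 (-0.534 to 0.165), 1.49-fold lower (1.25 to 1.77, adjusted p = 0.00103). The groups overlapped in both sets. Cyp2c37 was 1.87-fold and 1.64-fold lower (adjusted p = 1.3e-09 and 1.53e-05), and 24 of 39 Cidea-top animals of the Eif2s3y-low set lay below every Cidea-bottom animal. Cyp2c40 stood at different levels in the sets, with medians of -0.327 and -0.495 in Eif2s3y-high against 0.247 and -0.0230 in Eif2s3y-low animals, and was lower in the Cidea-top group of each (1.41-fold and 1.82-fold). Cyp2c70 (1.82-fold and 1.39-fold), Cyp2c50 (1.78-fold and 1.38-fold) and Cyp2c23 (1.56-fold and 1.69-fold) were lower too. Binding of a probe to transcripts of other family members was not tested.

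Outside that family, Igfbp2, a carrier of insulin-like growth factors, was 1.92-fold lower in Eif2s3y-high (1.56 to 2.37) and 1.56-fold in Eif2s3y-low animals (1.27 to 1.92). Rnase4, a secreted ribonuclease, was 1.48-fold and 1.53-fold lower, and 19 of 39 Cidea-top animals of the Eif2s3y-low set lay below every Cidea-bottom animal. Abca8a, a lipid transporter of the ABC family (1.53-fold and 1.41-fold), and Cnmd, chondromodulin (1.35-fold and 1.41-fold), fell in both sets. Avpr1a, the liver's vasopressin receptor (1.73-fold and 1.28-fold), Slc43a1, an amino acid transporter (1.7-fold and 1.24-fold), Cyp26a1, which breaks down retinoic acid (1.64-fold and 1.27-fold), Cyp4f14, a fatty acid and eicosanoid hydroxylase (1.7-fold and 1.21-fold), and Apol7a (1.7-fold and 1.15-fold) fell more in Eif2s3y-high animals. For these 5 and Cyp2c54 the difference between the sets was called, with adjusted p from 2.51e-05 to 0.0478. Per log10 unit of Cidea that difference changed sign for Cyp2c54, Avpr1a, Slc43a1 and Cyp26a1 and was not called. Only Cyp2c37, Igfbp2 and Cyp2c23 (0.0264%) were at least 1.5-fold lower in both sets.

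The animals between the outer groups, which the group means above did not use, were split at the median of Cidea within each set (39 animals on each side, with 1 array at the median left out). Cidea there differed by 4.43-fold in the Eif2s3y-high and 1.3-fold in the Eif2s3y-low set. Of the 283 genes higher in both outer comparisons 277 (97.9%) had the same sign in the mean of the middle comparisons, against 47.9% of all genes, and of the 261 lower genes 253 (96.9%) against 52.1%. In the middle animals 11 genes were called higher (0.0966%) and 9 lower (0.0791%), of which 8 and 6 were among those shared genes. Within the Eif2s3y-high set alone 6 were called higher (0.0527%) and 1 lower (0.00878%), and within the Eif2s3y-low set 0; at an unadjusted p under 0.05 in limma the shares were 7.55% and 7.66% of genes in either direction. Sdcbp2 was among them (log10 difference 0.383 and 0.131, adjusted p = 1.58e-08), as were Plin4 (0.210 and 0.184, adjusted p = 0.0148), Treh (0.139 and 0.107, 0.0148), Fitm1 (0.116 and 0.153, 0.0176), Cyp2c37 (-0.121 and -0.119, 0.0148), Apol7a (-0.0634 and -0.0712, 0.0148) and Cyp26a1 (-0.115 and -0.0509, 0.0428). With a regression on the Cidea value of the middle animals in place of the split, 5 of the shared genes were called instead of 14. The middle animals share the pool and the platform with the outer ones and were split on the same Cidea probe. Genes measured on the same arrays are not independent of each other, so the shares of matching signs are a description.

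Pparg was among the genes higher in the Cidea-top livers of the Eif2s3y-high set. The promoters of the shared genes were read for the element that PPAR and other nuclear receptors bind as dimers, DR1, searched as 2 copies of AGGNCA 1 base apart on both strands. In windows from 250 bases before to 50 after each start (RefSeq, GRCm38.p6) it occurred in 34 of the 8545 tested genes with a window (0.398%). Of the 208 shared higher genes with a window 2 held it (0.962%), Apoc2 and Akna, and of the 208 shared lower genes 2 (0.962%), F7 and Cyp2d10. Akna, F7 and Cyp2d10 were chosen after their values were seen. The window of Plin4 held none, nor did those of the other 6 shared higher genes of at least 1.5-fold that had one. Apoc2, the cofactor of lipoprotein lipase, was 1.18-fold and 1.21-fold higher (adjusted p = 0.00227 and 0.00119), with medians from 0.0608 to 0.103 and from -0.0890 to -0.0153. F7, coagulation factor VII, was 1.44-fold and 1.2-fold lower (adjusted p = 8.92e-10 and 0.00698), Cyp2d10 1.3-fold and 1.13-fold lower, and Akna 1.11-fold higher in both. The 250 bases before the start are shown for the shared gene that carries the marker list and for a higher and a lower shared gene with the element, whose letters are in capitals.
Plin4, chr17:56109783-56110032, minus strand: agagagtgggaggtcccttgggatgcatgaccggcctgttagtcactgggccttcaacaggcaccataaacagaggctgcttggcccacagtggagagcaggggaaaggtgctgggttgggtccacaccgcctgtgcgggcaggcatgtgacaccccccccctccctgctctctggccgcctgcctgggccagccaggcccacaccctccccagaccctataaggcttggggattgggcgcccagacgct
Apoc2, chr7:19677942-19678191, minus strand: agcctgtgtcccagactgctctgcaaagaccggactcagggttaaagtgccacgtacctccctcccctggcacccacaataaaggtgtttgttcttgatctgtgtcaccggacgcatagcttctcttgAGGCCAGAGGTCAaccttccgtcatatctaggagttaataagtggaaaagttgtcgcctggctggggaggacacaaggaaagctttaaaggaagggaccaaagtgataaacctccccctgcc
F7, chr8:13025784-13026033, plus strand: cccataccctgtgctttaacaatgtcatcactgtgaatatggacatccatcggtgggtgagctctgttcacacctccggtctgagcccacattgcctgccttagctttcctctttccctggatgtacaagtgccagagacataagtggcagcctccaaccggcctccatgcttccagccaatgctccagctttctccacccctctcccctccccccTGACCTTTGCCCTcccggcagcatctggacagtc
The element lies from base -122 to -110 in Apoc2 and, on the opposite strand, from -34 to -22 in F7. A match describes the letters only, and no match says only that they are not in this window.

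Lists of genes with a common role were read next, by counts and medians beside those of all genes (median log10 difference -0.00348 in Eif2s3y-high and -0.000873 in Eif2s3y-low animals). Of all genes 12.4% were called higher and 13.8% lower in the first set, and 7.62% and 7.67% in the second. A difference between the sets was called for 9.89%. Of 17 tested lipid droplet and storage genes other than Cidea, 8 rose and 1 fell in Eif2s3y-high animals (median 1.1-fold), and 4 rose and 0 fell in Eif2s3y-low animals (median 1.05-fold). Besides Plin4 and Fitm1 they include Mgll, the monoacylglycerol lipase (1.14-fold and 1.17-fold, called in both), Hilpda, an inhibitor of lipolysis (1.19-fold, and 1.08-fold not called), and Agpat2, which makes phosphatidic acid (1.02-fold not called, and 1.21-fold). Of 13 PPAR gamma targets 7 rose and 1 fell in Eif2s3y-high animals, with a median of 1.39-fold, and Plin4 alone rose in Eif2s3y-low animals, with a median of 1.055-fold; 6 of the 13 differed between the sets. Fabp4, the adipocyte fatty acid carrier, rose 1.86-fold (1.56 to 2.21) from a median of -0.0764 to 0.175 and was 1.19-fold higher without a call in the Eif2s3y-low set (1.0 to 1.41, adjusted p = 0.168). Cd36, the fatty acid importer, rose 1.67-fold (1.46 to 1.91) and was 1.12-fold higher without a call (0.977 to 1.28, adjusted p = 0.262). Lgals1, a galectin (1.81-fold), and Vldlr, a lipoprotein receptor (1.5-fold), both chosen after their values were seen, rose in the Eif2s3y-high set.

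Of 18 fatty acid synthesis genes 6 rose and 1 fell in Eif2s3y-high and 4 rose and 1 fell in Eif2s3y-low animals, with medians of 1.15-fold and 1.12-fold. Fasn, Scd1, the stearoyl-CoA desaturase (1.36-fold and 1.53-fold), and Me1, the malic enzyme that supplies NADPH (1.55-fold and 1.27-fold), rose in both, and Mlxipl, the carbohydrate-response factor ChREBP, fell in both (1.27-fold and 1.17-fold). In Eif2s3y-low animals Fasn and Me1 were called close to the threshold (limma, adjusted p = 0.0499 and 0.0481). Those calls were kept in 10 of 19 and 11 of 19 alternatives. Elovl6, a fatty acid elongase (1.44-fold), and Scd2 (1.29-fold) rose in Eif2s3y-high animals. Of 27 fatty acid oxidation and PPAR alpha target genes 10 rose and 0 fell in the first set, and 3 rose and 1 fell in the second, with medians of 1.04-fold and 1.05-fold. Vnn1, a pantetheinase, rose 2.63-fold in Eif2s3y-high animals (2.09 to 3.32, adjusted p = 2.35e-11), from -0.250 (-1.3 to 0.0554) to 0.105 (-0.289 to 0.253), and 28 of 38 animals lay above the other group; in Eif2s3y-low animals it was not called (1.27-fold, 1.01 to 1.6, adjusted p = 0.144). Pdk4, which spares glucose from oxidation (1.42-fold), rose in the first set, and Eci1 and Hadh of beta oxidation rose by 1.1-fold to 1.14-fold in both.

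Of 17 cholesterol synthesis and uptake genes 4 rose and 1 fell in Eif2s3y-high and 3 rose in Eif2s3y-low animals (medians 1.1-fold and 1.12-fold), with Insig2 (1.33-fold) called in the first set and Insig1 (1.28-fold) in the second. The call of Insig1 (limma, adjusted p = 0.0496) was kept in 10 of 19 alternatives. Among 12 genes of fatty acid uptake and binding 3 rose and 1 fell in the first set, and 0 were called in the second. Over all genes 26.3% were called in either direction in the first set and 15.3% in the second. Taken in either direction, the cholesterol counts in both sets and the uptake count in the first lay near these shares. Of 13 lipoprotein genes 3 rose and 4 fell, and 1 rose and 2 fell: Apom, the apolipoprotein that carries sphingosine 1-phosphate (1.4-fold and 1.26-fold), and Apob (1.3-fold and 1.32-fold) were lower in both, Pltp, the phospholipid transfer protein, was 1.26-fold higher and Scarb1, the HDL receptor, 1.2-fold lower in Eif2s3y-high animals. Of 19 glycolysis and glycogen genes 6 rose and 1 fell, and 3 rose and 0 fell. Hk2, the hexokinase that normal hepatocytes hardly express, rose 2.03-fold in Eif2s3y-high animals (1.84 to 2.25, adjusted p = 5.51e-26), from -0.124 (-0.256 to 0.0104) to 0.185 (-0.0772 to 0.437), with 35 of 38 animals above every Cidea-bottom animal. In Eif2s3y-low animals Hk2 rose 1.15-fold (1.04 to 1.26, adjusted p = 0.046), less than in the other set (adjusted p for the difference 2.52e-10). Of 17 oxidative stress and NRF2 target genes 8 rose and 1 fell, and 6 rose and 1 fell, with medians of 1.14-fold in both sets; Gstm2, a glutathione transferase (1.4-fold and 1.47-fold), and Nqo1, a quinone reductase (1.38-fold and 1.26-fold), rose in both, and Cbr3, a carbonyl reductase, rose 2.02-fold in Eif2s3y-high animals and was 1.06-fold higher without a call in the other set.

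**Figure D4:**
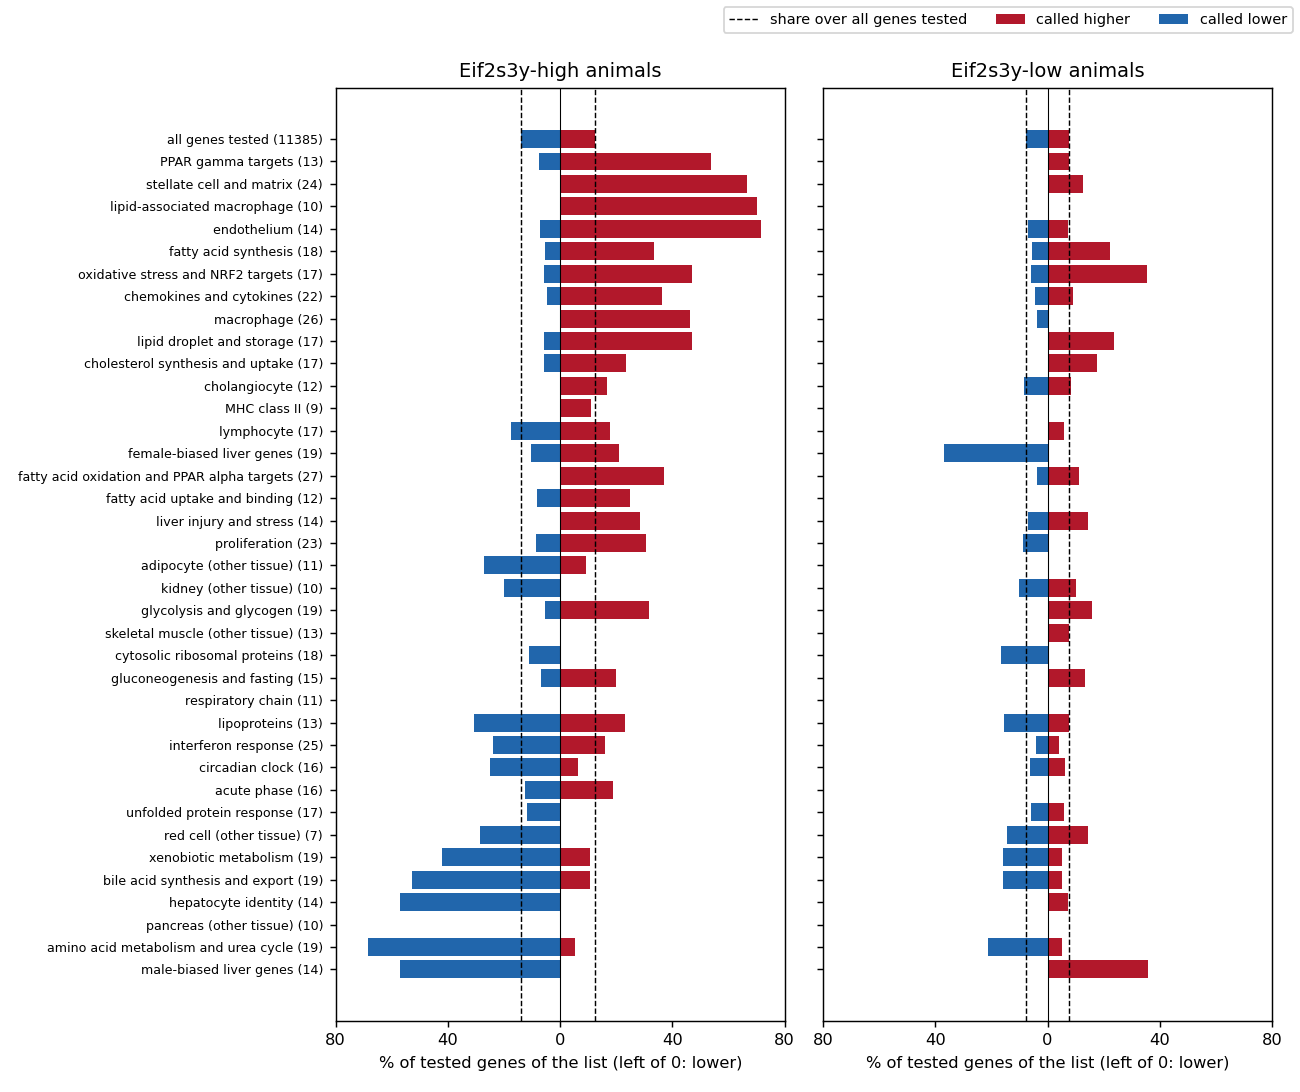
Share of the tested genes of each list called higher (right of 0) or lower (left of 0) in Cidea-top animals, for Eif2s3y-high (left panel) and Eif2s3y-low animals (right panel), in % with the number tested in brackets and ordered by the median difference in Eif2s3y-high animals. Dashed lines mark the shares over all genes tested, 12.4% and 13.8% on the left and 7.62% and 7.67% on the right; matrix, endothelium and macrophage lists stand to the right and amino acid and male-biased lists to the left in the first set.

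Genes of matrix-forming, endothelial and macrophage cells rose in the Cidea-top group of the Eif2s3y-high set. By the test the change was larger than in the other set for 10 of 24, 2 of 14 and 6 of 26 listed genes. Over all genes this share was 4.89%, and 1 matrix gene differed the other way. Per log10 unit of Cidea the difference between the sets changed sign for Col5a2, Col6a3, Col4a1 and Pdgfrb and was not called. In bulk liver, more cells of a type and more RNA per cell cannot be told apart. Of 24 stellate cell and matrix genes 16 rose and 0 fell in Eif2s3y-high animals (median 1.28-fold), and 3 rose and 0 fell in Eif2s3y-low animals (median 1.09-fold). Lox, the collagen crosslinking oxidase, rose 1.59-fold (1.34 to 1.89), Col5a2 1.5-fold from a median of -0.136 to 0.0318, and Col6a1 rose in both sets (1.17-fold and 1.09-fold). Of genes chosen after their values were seen, Col6a3 (1.49-fold), Pdgfrb, a receptor of stellate cells (1.49-fold), Lum, a collagen-binding proteoglycan (1.45-fold), and Col4a1 of basement membranes (1.44-fold) rose in Eif2s3y-high animals. The main fibrillar collagen genes Col1a1 (1.0-fold, 0.960 to 1.05) and Col1a2 (1.02-fold, 0.956 to 1.09) were not called there. Array means over the list had medians of -0.0642 and 0.0360 in the Cidea-bottom and Cidea-top groups, with overlapping ranges (-0.216 to 0.138 and -0.123 to 0.233).

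Of 14 endothelial genes 10 rose and 1 fell in Eif2s3y-high animals (median 1.17-fold), and 1 rose and 1 fell in Eif2s3y-low animals. Vwf, von Willebrand factor (1.32-fold), Emcn, endomucin (1.31-fold), and Lyve1, a hyaluronan receptor of sinusoids (1.32-fold, and 1.21-fold in the other set), rose, and the scavenger receptor gene Stab2 was 1.08-fold lower in both, although with its most variable probe the log10 difference in Eif2s3y-high animals was 0.0103. Of 26 macrophage genes 12 rose and 0 fell in Eif2s3y-high animals (median 1.11-fold), and 0 rose and 1 fell in Eif2s3y-low animals. Clec4e, a lectin of activated macrophages (1.76-fold), Fcgr1, an IgG receptor (1.34-fold), and Itgax, an integrin chosen after its values were seen (1.31-fold), rose; Clec4f, which marks Kupffer cells (1.02-fold lower, 0.891 to 1.18), and Cd68 (1.08-fold higher, 1.01 to 1.16, adjusted p = 0.079), both chosen after their values were seen, were not called. Of 10 lipid-associated macrophage genes 7 rose and 0 fell in Eif2s3y-high animals (median 1.27-fold), against 0 called in Eif2s3y-low animals. Cd9, a tetraspanin (1.43-fold), Trem2, a lipid-sensing receptor (1.42-fold, from -0.0758 to 0.0624 in the median), and Cd63, a lysosomal tetraspanin (1.4-fold), were among them, the last pair chosen after its values were seen. Only Cd9 and Cd36 of the 10 differed between the sets by the test.

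The counts that follow stand beside shares over all genes of 12.4% higher and 13.8% lower in Eif2s3y-high and 7.62% and 7.67% in Eif2s3y-low animals. The acute phase, lymphocyte, MHC class II and cholangiocyte counts lay near those shares in Eif2s3y-high animals and are given as description only. Of 22 chemokine and cytokine genes 8 rose and 1 fell in Eif2s3y-high animals, and 2 rose and 1 fell in Eif2s3y-low animals. The chemokine genes Ccl4 (1.74-fold and 1.34-fold) and Ccl3 (1.6-fold and 1.32-fold) rose in both, and the monocyte attractants Ccl2 (1.61-fold) and Ccl7 (1.6-fold) in Eif2s3y-high animals. Of 25 interferon response genes 4 rose and 6 fell, and 1 rose and 1 fell, with medians of 0.959 and 0.983 times. Mx1 was higher in both (1.37-fold and 1.45-fold), against the direction of these medians. Of 16 acute phase genes 3 rose and 2 fell in the first set, Lcn2 (1.77-fold) and Cd14 (1.58-fold) among them, and 0 were called in the second. Of 17 lymphocyte genes 3 rose and 3 fell, and 1 rose and 0 fell, with Klrd1, a natural killer cell receptor, 1.63-fold higher in the first set. Of 9 MHC class II genes 1 rose (H2-Eb1, 1.3-fold) and 0 were called in the second set, and of 12 cholangiocyte genes 2 rose, and 1 rose and 1 fell, with Krt8 1.26-fold higher in both. Of 23 proliferation genes 7 rose and 2 fell, and 0 rose and 2 fell; Ccna2 and Ccnb2 rose 1.34-fold each in Eif2s3y-high animals and Tk1 fell in both (1.37-fold and 1.24-fold). Of 14 genes of liver injury and stress 4 rose and 0 fell, and 2 rose and 1 fell, with Cdkn1a (1.34-fold and 1.3-fold) and Gpc3 (1.28-fold and 1.3-fold) higher in both.

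Of 11 adipocyte genes Fabp4 rose and 3 fell in Eif2s3y-high animals, where 26.3% of all genes were called in either direction, and 0 were called in Eif2s3y-low animals, where 15.3% were. Slc2a4, the insulin-regulated glucose transporter, was 1.6-fold lower, Lep was 1.16-fold lower, and Plin1 (1.01-fold, 0.956 to 1.08) and Retn (1.03-fold lower, 0.987 to 1.08) were not called; the last 3 were chosen after their values were seen. Array means over the list ran from -0.0983 to 0.0694 in Cidea-bottom and from -0.134 to 0.113 in Cidea-top animals of the Eif2s3y-high set. Of 10 pancreas genes 0 were called in either set, and single arrays with means of 1.03, 0.506, 1.09 and 0.959 occurred in all 4 groups, beside group medians from -1.11 to -1.04. Of 13 skeletal muscle genes 0 were called in the first and 1 was higher in the second set (Eno3, 1.12-fold), with array means up to 0.695 and 0.679 in the Cidea-top groups. Of 10 kidney genes 0 rose and 2 fell, and 1 rose and 1 fell. Without the arrays that carry pancreas or muscle transcripts at 10-fold or more over the pool the counts of called genes stayed within 1.5 times.

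Genes of hepatocyte metabolism were read beside the shares of all genes called lower, 13.8% in Eif2s3y-high and 7.67% in Eif2s3y-low animals. By the test 1 of 19 genes of the amino acid list and 2 of 14 of the hepatocyte identity list differed between the sets. Over all genes 9.89% did. Of 19 genes of amino acid metabolism and the urea cycle 1 rose and 13 fell in Eif2s3y-high animals (median 0.866 times). In Eif2s3y-low animals 1 rose and 4 fell (median 0.962 times). Asl, which releases arginine in the urea cycle, fell 1.33-fold (1.2 to 1.48) from a median of -0.0555 to -0.145, and 1.17-fold (1.05 to 1.3) from 0.0618 to 0.0108. Otc, of the same cycle (1.28-fold and 1.17-fold), Cth, which makes cysteine (1.33-fold and 1.24-fold), and Prodh, which oxidises proline (1.3-fold and 1.17-fold), fell in both sets. Agxt (1.36-fold), Gnmt (1.35-fold) and Ass1 (1.23-fold, chosen after its values were seen) fell in Eif2s3y-high animals. Of 19 bile acid synthesis and export genes 2 rose and 10 fell, and 1 rose and 3 fell. Akr1d1, a reductase of the pathway (1.52-fold and 1.16-fold), Slco1b2, a bile acid importer (1.25-fold and 1.23-fold), and Baat, the conjugating enzyme (1.12-fold and 1.11-fold), fell in both, and Abcb4, the phospholipid exporter of bile, rose in both (1.14-fold and 1.1-fold). Cyp7b1, an oxysterol hydroxylase, fell 1.85-fold in Eif2s3y-high animals (1.55 to 2.22) and was 1.07-fold lower without a call in the other set.

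Of 14 hepatocyte identity genes 0 rose and 8 fell in Eif2s3y-high animals (median 0.917 times), and 1 rose and 0 fell in Eif2s3y-low animals; Asgr2, a subunit of the asialoglycoprotein receptor, and Foxa3, a liver transcription factor, fell 1.2-fold each. Of 19 xenobiotic metabolism genes 2 rose and 8 fell, and 1 rose and 3 fell: Cyp1a2 (1.65-fold) and Cyp2c29 (1.64-fold) fell in the first set, and Ephx1, the microsomal epoxide hydrolase, rose in both (1.17-fold and 1.2-fold). Of 15 gluconeogenesis and fasting genes 3 rose and 1 fell, and 2 rose and 0 fell, with Gadd45b 1.47-fold higher in Eif2s3y-high animals and Pcx, pyruvate carboxylase, higher in both (1.2-fold and 1.08-fold). Of 17 genes of the unfolded protein response 0 rose and 2 fell, and 1 rose and 1 fell; of 16 circadian clock genes 1 rose and 4 fell, and 1 rose and 1 fell; of 18 cytosolic ribosomal protein genes 0 rose and 2 fell, and 0 rose and 3 fell. Of 11 respiratory chain genes 0 were called in either set, with medians of 0.976 and 0.975 times. Of 7 red cell genes 0 rose and 2 fell in the first and 1 rose and 1 fell in the second set. Over all genes 26.3% were called in either direction in the first set and 15.3% in the second. Taken in either direction, the gluconeogenesis and clock counts in both sets and the red cell count in the first lay near these shares. So did the xenobiotic, unfolded protein and ribosomal counts in the second set. These counts are given as description only.

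Male-biased liver genes moved in different directions in the 2 sets. Their counts stand beside shares over all genes of 12.4% higher and 13.8% lower in Eif2s3y-high animals. In Eif2s3y-low animals these shares were 7.62% and 7.67%. Over all genes 5.0% had a called difference between the sets that was smaller in Eif2s3y-high animals, the direction of the male-biased list. Of 14 male-biased genes 0 rose and 8 fell in the Cidea-top group of Eif2s3y-high animals (median 0.792 times), 5 rose and 0 fell in Eif2s3y-low animals (median 1.095 times), and 10 of the 14 differed between the sets, all in the same direction. In the Eif2s3y-low set array means over this list had medians of -0.489 in the Cidea-bottom and -0.414 in the Cidea-top group. Of genes with a mean ratio at or below -0.5 in that set, 21 of 29 were higher in the Cidea-top group (median log10 difference 0.0851). The part of that shift in the rises of male-biased genes was not tested. Hsd3b5, a steroid reductase of male liver, had the largest fall of any gene. It ran from -0.758 through a median of 0.543 to 0.918 in Cidea-bottom and from -1.38 through -0.627 to 0.656 in Cidea-top animals of the Eif2s3y-high set, 9.03-fold lower (6.13 to 13.3, adjusted p = 1.23e-18), and 16 of 38 lay below every Cidea-bottom animal. In Eif2s3y-low animals, where Hsd3b5 stood far below the pool, the medians were -1.26 and -1.18 and the difference of 1.39-fold higher was not called (0.949 to 2.03, adjusted p = 0.241). Cyp4a12b and Cyp4a12a, male-biased fatty acid hydroxylases, showed the reverse. In Eif2s3y-high animals Cyp4a12b had medians of 0.270 and 0.272 (1.01-fold lower, 0.878 to 1.17), and in Eif2s3y-low animals it ran from -1.05 through -0.925 to -0.373 and from -0.953 through -0.594 to -0.279, 1.91-fold higher (1.66 to 2.20, adjusted p = 6.45e-12). Cyp4a12a, chosen after its values were seen, was 1.94-fold higher in Eif2s3y-low and 1.02-fold higher in Eif2s3y-high animals.

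Gstp1, a glutathione transferase of male liver chosen after its values were seen, was called in opposite directions: 1.44-fold lower in Eif2s3y-high (1.25 to 1.66, adjusted p = 2.58e-05) and 1.28-fold higher in Eif2s3y-low animals (1.11 to 1.47, adjusted p = 0.011). Its medians moved from 0.260 to 0.0915 and from -0.337 to -0.220. Alas2, the heme synthesis enzyme of red cells, did likewise (1.16-fold lower and 1.26-fold higher), and Cyp2d9, also chosen after its values were seen, was 1.42-fold higher in Eif2s3y-low animals and 1.24-fold lower without a call in the other set (adjusted p = 0.0838). Slco1a1, an organic anion importer, fell 2.54-fold in Eif2s3y-high animals (1.99 to 3.25), with 18 of 38 below every Cidea-bottom animal, and was 1.01-fold lower in the other set (0.792 to 1.29). Of 19 female-biased genes 4 rose and 2 fell in Eif2s3y-high animals (median 1.05 times), 0 rose and 7 fell in Eif2s3y-low animals (median 0.855 times), and 4 differed between the sets. Over all genes 26.3% were called in either direction in the first set, and the female-biased count there lay near that share. In the second set 7.67% of all genes fell. A difference toward the Eif2s3y-high set, the direction of these 4, was called for 4.89% of all genes. A1bg, a plasma glycoprotein of female liver, fell 2.12-fold in Eif2s3y-low animals (1.46 to 3.08, adjusted p = 0.00363), from a median of 0.228 to -0.205, and was not called in Eif2s3y-high animals, where it stood at -1.64 and -1.68. The transporter gene Slc22a26 (1.77-fold lower) and Cyp3a16 (1.7-fold lower), both chosen after their values were seen, fell in Eif2s3y-low animals, and Lifr, a cytokine receptor, fell in both sets (1.11-fold and 1.08-fold). The female-biased transporter gene Slc22a27 rose 2.11-fold in Eif2s3y-high animals (1.75 to 2.54), from -0.827 to -0.450 in the median, and was 1.06-fold lower without a call in the other set.

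**Figure D5:**
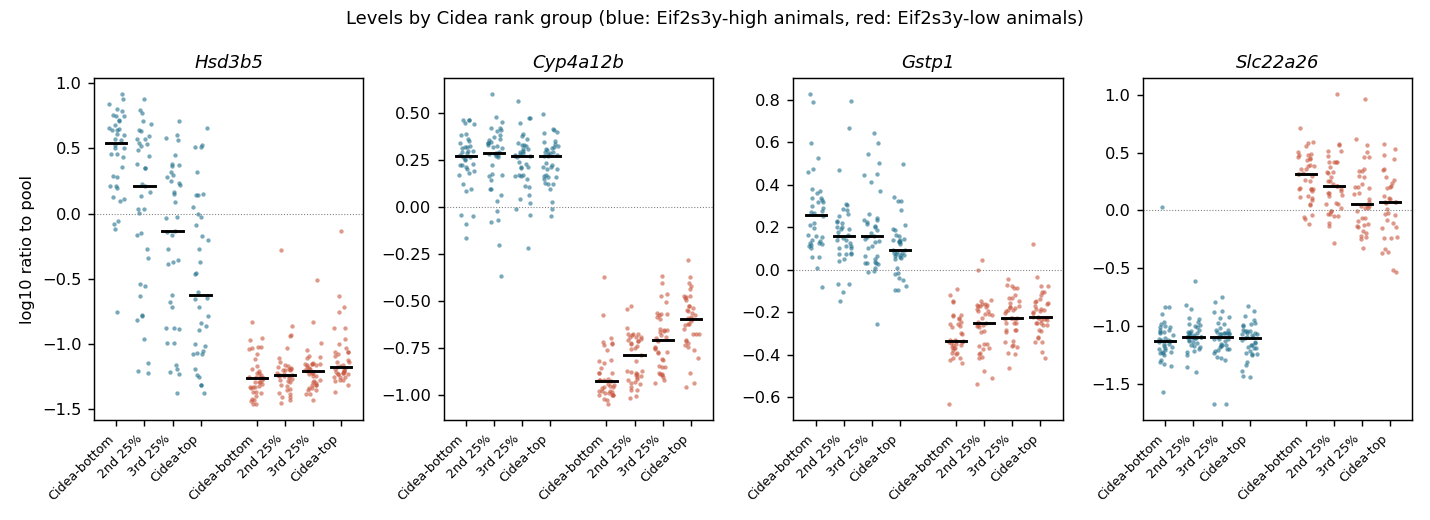
Log10 ratio to the pool of 4 sex-biased liver genes by Cidea rank group in Eif2s3y-high (blue) and Eif2s3y-low animals (red), with 1 point per animal and a bar at the median. Hsd3b5 falls along the rank in the blue animals, Cyp4a12b is higher and Slc22a26 lower in the Cidea-top group of the red animals, and Gstp1 moves in opposite directions.

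A change counted as belonging to 1 set where it was called there, was not called in the other, and the difference between the sets was called; that difference was called for 1126 genes (9.89%), toward the Eif2s3y-high set for 557 (4.89%) and the other way for 569 (5.0%). By this count 377 genes (3.31%) rose and 334 (2.93%) fell in Eif2s3y-high animals only, and 137 (1.2%) rose and 102 (0.896%) fell in Eif2s3y-low animals only. Besides Sdcbp2, Plin4 and Slc22a27, the largest differences toward the Eif2s3y-high set were those of A2ml1, a protease inhibitor gene (2.82-fold higher, 2.06 to 3.86, and 1.09-fold lower without a call), and Gnai1, a G protein subunit (2.37-fold higher, 2.05 to 2.74, and 1.04-fold lower without a call). Gnai1 ran from -0.466 to 0.331 in Cidea-bottom and from -0.0401 to 0.658 in Cidea-top animals, with 17 of 38 above the other group. Gad2, a glutamate decarboxylase (1.76-fold higher, and 1.54-fold lower without a call), and the probe named TATDN1, a nuclease gene (1.2-fold higher without a call, and 1.86-fold lower), reached -2 or 2, where the deposited scale ends. With such values left out the difference in Gad2 within the Eif2s3y-high set (adjusted p = 0.15) and the difference in TATDN1 between the sets (adjusted p = 0.0925) were no longer called. Sult1e1, the estrogen sulfotransferase, differed between the sets (adjusted p = 0.0271) without a call in either.

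Differences the other way, below 0, were largest for Hsd3b5, Slco1a1, Cyp4a12b and the genes that follow. Cyp4a12b was 1.01-fold lower without a call in Eif2s3y-high animals and rose 1.91-fold in the other set. The rest fell in Eif2s3y-high animals. Besides Hsd3b5 and Slco1a1 they were Dkk4, a Wnt inhibitor (2.84-fold lower in Eif2s3y-high animals, 2.27 to 3.55, and 1.27-fold higher without a call), Pianp (2.73-fold lower, 2.02 to 3.69), Rnase2a, an eosinophil-type ribonuclease (2.66-fold lower, 2.18 to 3.24), Tmeff2, a transmembrane protein gene (2.57-fold lower, 2.08 to 3.17), and Acsl6, an acyl-CoA synthetase (1.79-fold lower, 1.27 to 2.52). Dkk4 moved from a median of 0.338 to -0.151 in Eif2s3y-high animals, while both groups of the Eif2s3y-low set were near -0.350 and -0.322. The gap in Cidea was 51.8-fold in one set and 2.97-fold in the other, so the group differences do not stand for equal steps of Cidea. When slopes per log10 unit of Cidea over all animals of each set were compared instead, a comparison added after the data were seen, 1126 genes were called again by coincidence of number (606 larger and 520 smaller in the Eif2s3y-high set), and only 332 of them were among those called by groups. Of the genes named here, 18 of 57 kept the call and the sign, Hsd3b5, Dkk4, Gnai1, Slc22a27, Cyp4a12b and Gstp1 among them, and 13 reversed in sign, Plin4, Sdcbp2, Fabp4 and the matrix genes Col5a2, Col6a3, Col4a1 and Pdgfrb among them. The other 26 kept the sign and were not called. For these 39 of the 57 a difference between the sets was called for the groups as ranked and was not called for equal steps of Cidea. Slopes in the Eif2s3y-low set rest on a narrower range of Cidea (0.472 against 1.71 log10 units between the outer groups) and are less precise. A missing call therefore does not show that the slopes are equal.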

How the data were processed

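Liver RNA of 311 F2 mice was hybridised on 2-colour arrays of 23388 probes, 1 array per animal. The deposited values are log10 ratios of sample to pool, limited to -2 and 2; how they were background-corrected and normalised is not given in the sources used here. Per the labels the sample is Cy3 and the pool Cy5; the direction was checked on the slope of gene means on variances (-1.049, against -1.151 for sample over pool). Of 48205 pairs of arrays 131 correlated below -0.3 (lowest -0.435), and the direction was kept. Of the values 0.745% were missing and 1990 lay at the limits. A probe needed values on 95% of arrays or more, and each gene had 1 probe (fewest missing values, first at ties), which gave 11387 genes; Cidea and Eif2s3y, which formed the groups, were not tested. Probe names came from GEO's platform table, updated through RefSeq. Group means were compared with limma 3.58.1 in R 4.3.3 in 1 model over the 4 outer groups, and in another over the middle animals, with contrasts within each set and between sets and Benjamini-Hochberg adjustment over 11385 genes; the steps were tested on simulated data. Array properties were compared by permutation (100000 draws). Tables and figures were made in Python 3.11.15 with pandas 2.3.3.

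Named genes are the 3 markers, the 15 highest and 15 lowest shared genes by mean difference, the 8 largest differences between sets in each direction, and from each list up to 4 members called in both sets and up to 2 of the rest called in either, by size; others are marked as chosen after their values were seen. The members and lists were chosen with earlier results of these data known. Labels do not say whether animals share litters, and p-values measure the spread between animals. The number of arrays limits the precision. Alternatives covered centring, probe choice, filters, group size, covariates and subsets of animals; leaving out arrays by missing values, the Eif2s3y covariate, slopes per unit of Cidea and regression in middle animals were chosen after seeing the data.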

Additional observations from a re-analysis of the deposited data

Results flagged for a closer look

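The difference between Cidea-top and Cidea-bottom animals was itself different in Eif2s3y-high and Eif2s3y-low animals, by the test of that difference in limma at an adjusted p under 0.05, for 57 of the genes named in the text. Values are the log10 difference in Eif2s3y-high animals minus that in Eif2s3y-low animals. It was above 0 for Sdcbp2 (0.688), A2ml1 (0.489), Gad2 (0.433), Sult1e1 (0.408), Gnai1 (0.39), Plin4 (0.373), Slc22a27 (0.348), TATDN1 (0.348), Cyp3a16 (0.321), Vnn1 (0.316), Cbr3 (0.282), Pparg (0.263), Klrd1 (0.261), Hk2 (0.249), Lgals1 (0.235), Slc22a26 (0.224), Cd14 (0.208), Vldlr (0.207), Fabp4 (0.195), Tubb2a (0.191), Cd36 (0.174), Ccl7 (0.172), Lum (0.17), Lox (0.155), Col6a3 (0.143), Cd9 (0.134), Col5a2 (0.127), Gadd45b (0.126), Col4a1 (0.12), Fcgr1 (0.12), Scd2 (0.117) and Pdgfrb (0.106). It was below 0 for Hsd3b5 (-1.1), Dkk4 (-0.556), Pianp (-0.553), Tmeff2 (-0.432), Rnase2a (-0.424), Slco1a1 (-0.401), Acsl6 (-0.356), Cyp4a12b (-0.287), Cyp4a12a (-0.282), Gstp1 (-0.265), Cyp2d9 (-0.246), Cyp7b1 (-0.239), Cyp1a2 (-0.204), Cyp2c29 (-0.183), Apol7a (-0.171), Cyp2c54 (-0.168), Alas2 (-0.165), Cyp4f14 (-0.149), Slc43a1 (-0.139), Avpr1a (-0.13), Akr1d1 (-0.118), Cyp26a1 (-0.11), Foxa3 (-0.0949), Asgr2 (-0.0831) and Agpat2 (-0.0745). These genes were named partly for this difference, which was called for 9.89% of all genes tested.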

How the results depend on the processing

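Counts are given as higher and lower in Eif2s3y-high animals, higher and lower in Eif2s3y-low animals, higher and lower in both, and differing between the sets; with every array they were 1415, 1576, 867, 873, 283, 261 and 1126. With probes measured on every array, which leaves 6560 genes before testing, 920 were higher in the first set, 566 higher and 576 lower in the second, and 749 differed. F2 numbers up to the median gave 577, 544, 2, 2, 1, 0 and 43, and those above it 768, 743, 479, 477, 106, 118 and 198, both with fewer animals. Splitting all animals at the median of Cidea left 366 differing, regression on Cidea gave 398 lower in both, and array weights gave 1730 differing. The Eif2s3y covariate gave 439 higher and 451 lower in the second set, 182 higher in both and 526 differing. A fold of at least 1.5 left 86, 41, 14, 23, 9 and 3, and an adjusted p under 0.01 left 1013 lower in the first set, 309 and 325 in the second, 92 and 93 in both and 310 differing. In the middle animals 5 shared genes were called by regression, against 14. Where the construction does not show it, the cause was not tested. Centring each array on its median gave 1529 and 1372, 1041 and 730, and 336 and 201. Differences between the sets per log10 unit of Cidea changed sign for Plin4 (-0.149), Sdcbp2 (-0.0366), Tubb2a (-0.056), Cyp2c54 (0.112), Avpr1a (0.105), Slc43a1 (0.0507), Cyp26a1 (0.0588), Fabp4 (-0.0568), Akr1d1 (0.0289), Col5a2 (-0.108), Col6a3 (-0.0173), Col4a1 (-0.0118) and Pdgfrb (-0.0647), none of them called (adjusted p from 0.211 to 0.903). The most variable probe of Stab2 gave 0.0103 in Eif2s3y-high animals. Over 145 named genes and all alternatives, 4353 of 4824 results kept direction and call, 457 kept only the direction and 14 changed direction. The difference between the sets could not be had from the Wilcoxon test or from each set fitted alone. No paired analysis was possible because the labels give 1 group and no replicate numbers shared between groups. No scanner signals were used here, so signal over background is unknown.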
